A study of Homo sapiens with 3 samples.

Results

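The IFIT, MX and GBP families are interferon-induced proteins that act inside the infected cell. The genes described here are IFIT1, IFIT2, IFIT3, IFIT5, MX1, MX2, GBP1 and GBP2, chosen by symbol and followed on every probe set that carries that symbol alone. These 8 genes, of 11963 genes measured in the series, had 10 probe sets of 19065, with GBP1 and IFIT5 on 2 probe sets each. Expression was measured on Affymetrix arrays in HT-29, a long-established line of epithelial cells from a human colon adenocarcinoma. The 3 arrays are the only group, and the series describes the cultures as biological replicates. Each culture received 200 U/ml IFN-γ for 24 h, after a first 24 h of growth in serum-containing medium from 50000 cells per cm2. No untreated cultures were analysed here, so every value below is a level in treated cells and none measures a response to IFN-γ. The cultures were measured in bulk, so fewer expressing cells and less RNA per cell cannot be told apart.

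IFIT proteins are built from tetratricopeptide repeats and bind RNA that lacks the marks of host messenger RNA, which blocks its translation. MX proteins and guanylate-binding proteins (GBPs) are large GTPases of the dynamin superfamily. MX proteins assemble on viral nucleocapsids, and GBPs assemble on vacuoles and bacteria. IFIT and MX genes are best known as targets of type I interferon, which acts through the interferon-stimulated response element (ISRE), whereas GBP1 is a classical target of IFN-γ, which acts through the gamma-activated site (GAS) and, by way of IRF1, through the ISRE as well.

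The genes lie in 3 clusters. In the gene order of RefSeq on chromosome 10, IFIT2, IFIT3, IFIT1B, IFIT1 and IFIT5 follow each other with no other protein-coding gene between them, MX2 and MX1 are neighbours on chromosome 21, and GBP1 and GBP2 are neighbours on chromosome 1. RefSeq promoter windows were matched for 5 of the 8 genes, IFIT1, IFIT3, IFIT5, MX1 and GBP1, with 8 windows in all because IFIT3 has 2 annotated start sites and MX1 has 3. The 250 bases before the start site are shown for 5 of these windows, with a single window for each gene. They were searched for patterns of the ISRE and the GAS. They are from build GRCh38.p14, each read 5′ to 3′ on its gene's strand, and capitals mark matches to the motifs described after them.
IFIT1, chr10:89392373-89392622, plus strand: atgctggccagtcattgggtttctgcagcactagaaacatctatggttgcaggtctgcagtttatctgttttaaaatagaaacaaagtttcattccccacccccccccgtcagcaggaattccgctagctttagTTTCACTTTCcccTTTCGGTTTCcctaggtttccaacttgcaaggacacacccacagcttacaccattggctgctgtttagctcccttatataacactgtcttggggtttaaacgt
IFIT3, second start site, chr10:89332279-89332528, plus strand: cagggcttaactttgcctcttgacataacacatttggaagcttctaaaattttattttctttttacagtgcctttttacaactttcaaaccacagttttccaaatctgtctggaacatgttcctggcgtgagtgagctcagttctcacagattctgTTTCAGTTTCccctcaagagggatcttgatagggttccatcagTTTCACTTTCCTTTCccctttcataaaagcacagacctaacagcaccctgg
IFIT5, chr10:89414318-89414567, plus strand: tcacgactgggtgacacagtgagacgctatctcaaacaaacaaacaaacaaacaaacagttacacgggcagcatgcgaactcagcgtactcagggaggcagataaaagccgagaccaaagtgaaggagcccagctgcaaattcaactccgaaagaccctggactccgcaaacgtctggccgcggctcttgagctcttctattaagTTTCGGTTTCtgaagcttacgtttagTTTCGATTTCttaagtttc
MX1, second start site, chr21:41425989-41426238, plus strand: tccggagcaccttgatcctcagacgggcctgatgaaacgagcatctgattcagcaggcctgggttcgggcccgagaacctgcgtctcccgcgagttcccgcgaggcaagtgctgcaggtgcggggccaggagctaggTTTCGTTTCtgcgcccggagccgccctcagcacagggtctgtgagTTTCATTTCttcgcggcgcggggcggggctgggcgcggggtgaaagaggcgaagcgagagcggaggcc
GBP1, chr1:89065209-89065458, minus strand: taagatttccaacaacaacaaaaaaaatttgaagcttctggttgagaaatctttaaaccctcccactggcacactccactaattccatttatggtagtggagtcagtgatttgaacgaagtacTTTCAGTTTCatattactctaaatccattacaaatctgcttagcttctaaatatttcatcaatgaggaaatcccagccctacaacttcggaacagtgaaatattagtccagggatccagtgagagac

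Every one of the 8 windows held an ISRE core in one of the forms searched. The first form, GAAA repeated after any 2 bases, was searched on both strands and occurred in 3.02% of 35116 RefSeq windows of the same 250 bases. The second form has 1 base in place of 2 between the repeats (GAAANGAAA) and occurred in 2.69%, and 5.48% of windows held at least one of these forms. All member ISRE matches ran on the strand opposite to the gene. IFIT1 had its matches from 116 to 107 and from 103 to 94 bases before the start, IFIT5 from 45 to 36 and from 19 to 10, and GBP1 had a single match from 127 to 118. At its second start site IFIT3 had matches to the first form from 94 to 85 and from 51 to 42, and the latter overlapped a GAAANGAAA match from 45 to 37. At its second start site MX1 had only the GAAANGAAA form, from 113 to 105 and from 68 to 60. The GAS motif TTCNNNGAA, which reads the same on both strands, occurred in 6.57% of all windows and in 1 of the 8, at the third start site of MX1, where it overlapped an ISRE match. Only this exact pattern was searched, so a GAS element that departs from it would be missed in any window, that of GBP1 included. These matches are descriptions of the letters in these windows, and no binding was measured.

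**Figure D1:**
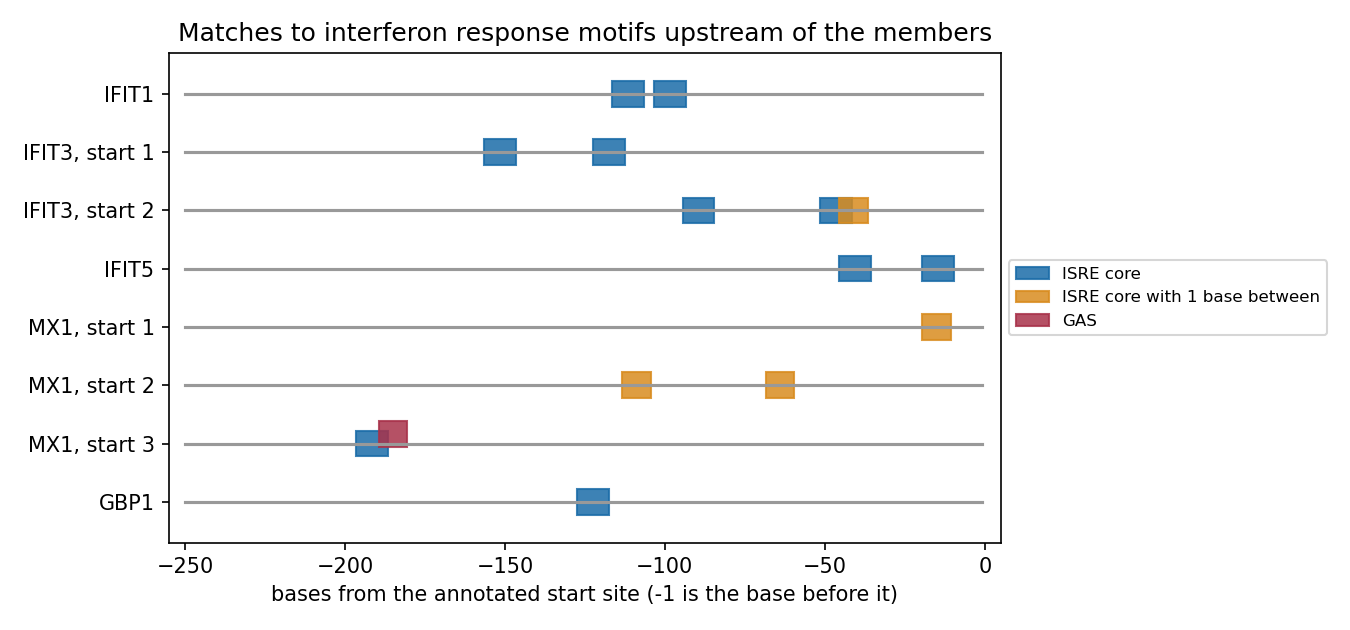
Matches to the ISRE core with 2 bases between its repeats, to the form with 1 base between them and to the GAS motif in the 250 bases before each annotated start site of IFIT1, IFIT3, IFIT5, MX1 and GBP1. The horizontal axis is the distance from the start site in bases; each of the 8 windows holds an ISRE form and 1 holds a GAS match.

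The names of the probe sets had to be settled before any value could be read. Under the deposited order the probe sets of one gene were nearly unrelated in signal, so the names were placed in an order inferred from the data, in which the names of MX1, GBP1 and GBP2 moved by 1 row more than those of the other 5 genes. The agreement under this order was then described on the rows around the members. The measure was agreement between probe sets of one gene, from which the order was also inferred, so this is not an independent check. Over 7835 probe sets of the block that holds the IFIT genes and MX2, the mean log2 signal correlated with that of other probe sets of the same gene at r = 0.54, against r = 0.13 and 0.14 for names 1 row before and after and r = 0.04 as deposited. Over 730 probe sets of the block that holds MX1, GBP1 and GBP2, r was 0.44, against 0.13 and 0.18 for 1 row before and after and -0.09 as deposited. Within 500 rows of each member probe set, r lay between 0.29 (GBP2) and 0.53 (IFIT1) over 209 to 384 probe sets. No other placement within 20 rows gave more than 0.235 there, and around GBP2 the highest was 0.15. These correlations are across probe sets, which are not independent replicates. Pairs within 10 rows of each other were not used, so the paired probe sets of GBP1 and of IFIT5 did not enter them.

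**Figure D2:**
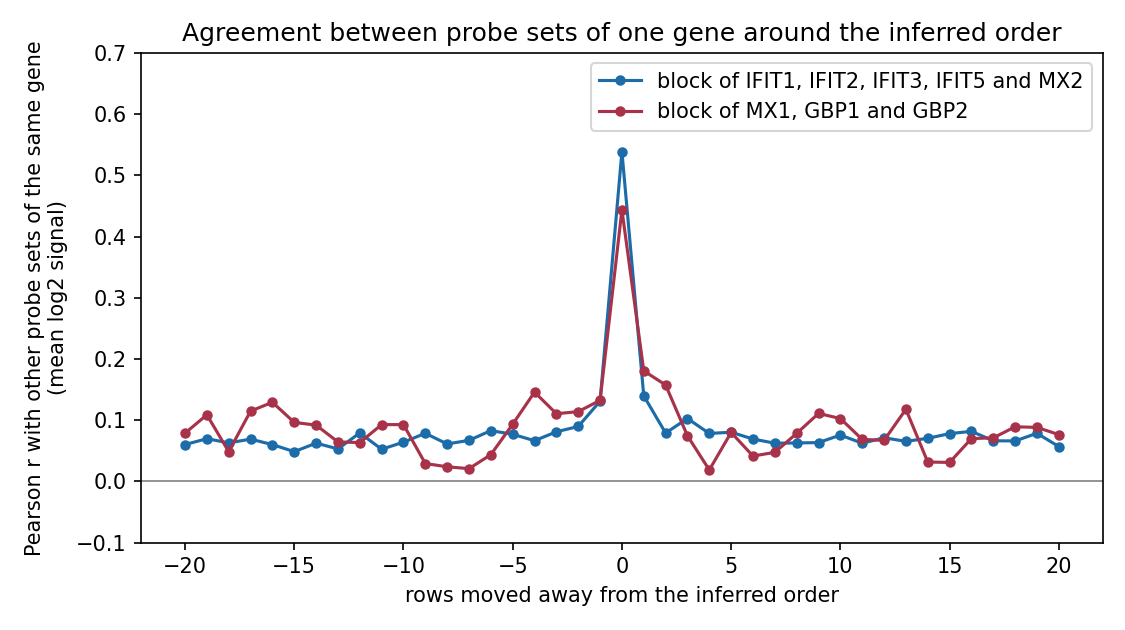
Pearson correlation between the mean log2 signal of a probe set and that of other probe sets of its gene (vertical axis) when names are moved by up to 20 rows from the inferred order (horizontal axis), for the row blocks that hold the members. Both blocks peak at the inferred order, at 0.54 and 0.44, and the highest value at any other placement is 0.14 and 0.18.

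Of the 10 member probe sets, 9 were called above background, compared with 39.4% of all 19065 single-symbol probe sets. A call means that the log2 signal exceeded a per-array background limit, judged against the spread between arrays (limma, one-sided, Benjamini-Hochberg adjusted p under 0.05 over all probe sets). To set the limit, 98 genes known for expression in tissues such as retina, muscle and testis were taken, and the 95th percentile of their signals was 167 in replicate 1, 155 in replicate 2 and 176 in replicate 3. The median of the called members lay 2.63 log2 units over the limit, compared with 2.15 over all 7514 called probe sets. With each gene read from its brightest probe set, 7 of 8 members were called, compared with 45.0% of 11963 genes, and the exception was MX2. The median of the 8 genes lay 2.17 log2 units over the limit, and that of all genes 0.22.

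The 4 IFIT genes were all called above background. IFIT1, which binds RNA whose cap lacks the ribose methylation of host messenger RNA, had signals of 547, 400.2 and 744 in replicates 1, 2 and 3. Its mean was 564 ± 172 (SD, n = 3), which is 1.72 ± 0.19 (SE) log2 units above the limit (limma adjusted p = 0.000137). Replicate 3 was the highest and replicate 2 the lowest. IFIT2, which associates with IFIT1 and IFIT3 and has been linked to cell death, had signals of 494, 367 and 283. These averaged 381 ± 106 (SD, n = 3), 1.16 ± 0.22 (SE) log2 units above the limit (limma adjusted p = 0.0022), and here replicate 1 was the highest and replicate 3 the lowest. With the limit at the 99th percentile of the restricted genes IFIT2 lay 0.47 log2 units over it and was not called (limma adjusted p = 0.176).

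IFIT3, which stabilises IFIT1 and links the RNA-sensing adaptor MAVS to the kinase TBK1, had signals of 2126, 2329 and 1511 in replicates 1, 2 and 3. The mean of 1988 ± 426 (SD, n = 3) lay 3.56 ± 0.19 (SE) log2 units above the limit (limma adjusted p = 2.99e-06), and replicate 3 was the lowest. IFIT5, which binds uncapped RNA ending in a triphosphate, was read by 203595_s_at with signals of 1015, 772 and 1373 and by 203596_s_at with 505, 559 and 384. The first lay 2.63 ± 0.18 (SE) log2 units above the limit (limma adjusted p = 9e-06) and the second 1.52 ± 0.20 (SE; limma adjusted p = 0.000312). Both carry the _s_at suffix of probe sets shared by several transcripts.

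The 2 probe sets of IFIT5 moved in opposite directions across the arrays. The first was highest in replicate 3 and lowest in replicate 2, and the second was highest in replicate 2 and lowest in replicate 3. Their log2 difference was 1.01, 0.47 and 1.84 in replicates 1, 2 and 3, with an SD of 0.69. Over 1530 genes with several called probe sets the median of this SD for the first pair was 0.29, with quartiles of 0.18 and 0.44, and 94.2% of these genes had a smaller one. The array pattern of the IFIT5 gene therefore depends on which probe set is read, although both were above background on all 3 arrays.

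MX1 was called above background and MX2 was not. MX1, a cytoplasmic GTPase best known for blocking influenza virus, had signals of 471, 518 and 481 in replicates 1, 2 and 3. The mean of 490.0 ± 24.9 (SD, n = 3) lay 1.56 ± 0.17 (SE) log2 units above the limit (limma adjusted p = 0.000107). MX2, which sits at the nuclear envelope and restricts HIV, had 218, 219 and 226. All 3 values were above the limits of their arrays, with a mean of 221 ± 4.01 (SD, n = 3) and a difference of 0.41 ± 0.20 (SE) log2 units, but the test did not call it (limma adjusted p = 0.0924). MX2 passed when probe sets with suffixes were left out (0.75 log2 units, limma adjusted p = 0.00938), which also lowered the limits to 122, 136 and 138 and the number of probe sets tested to 10100. With the 99th percentile as the limit its value was -0.28 log2 units.

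GBP1 and GBP2 were both called above background. GBP1, which coats Gram-negative bacteria in the cytosol, was read by 202269_x_at with signals of 4822, 5557 and 6756 in replicates 1, 2 and 3. Its mean was 5712 ± 976 (SD, n = 3), 5.09 ± 0.15 (SE) log2 units above the limit (limma adjusted p = 3.66e-07). The _x_at suffix marks cross-hybridisation, so related GBPs can add to this signal. The probe set 202270_at of GBP1 carries no suffix and had 2729, 2425 and 5997, a mean of 3717 ± 1980.5 (SD, n = 3), 4.36 ± 0.24 (SE) log2 units above the limit (limma adjusted p = 3.57e-06). GBP2, which like GBP1 carries a lipid anchor, had 1325, 1525 and 2096, a mean of 1649 ± 399.98 (SD, n = 3) and 3.29 ± 0.17 (SE) log2 units above the limit (limma adjusted p = 2.31e-06). All 3 probe sets were highest in replicate 3.

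**Figure D3:**
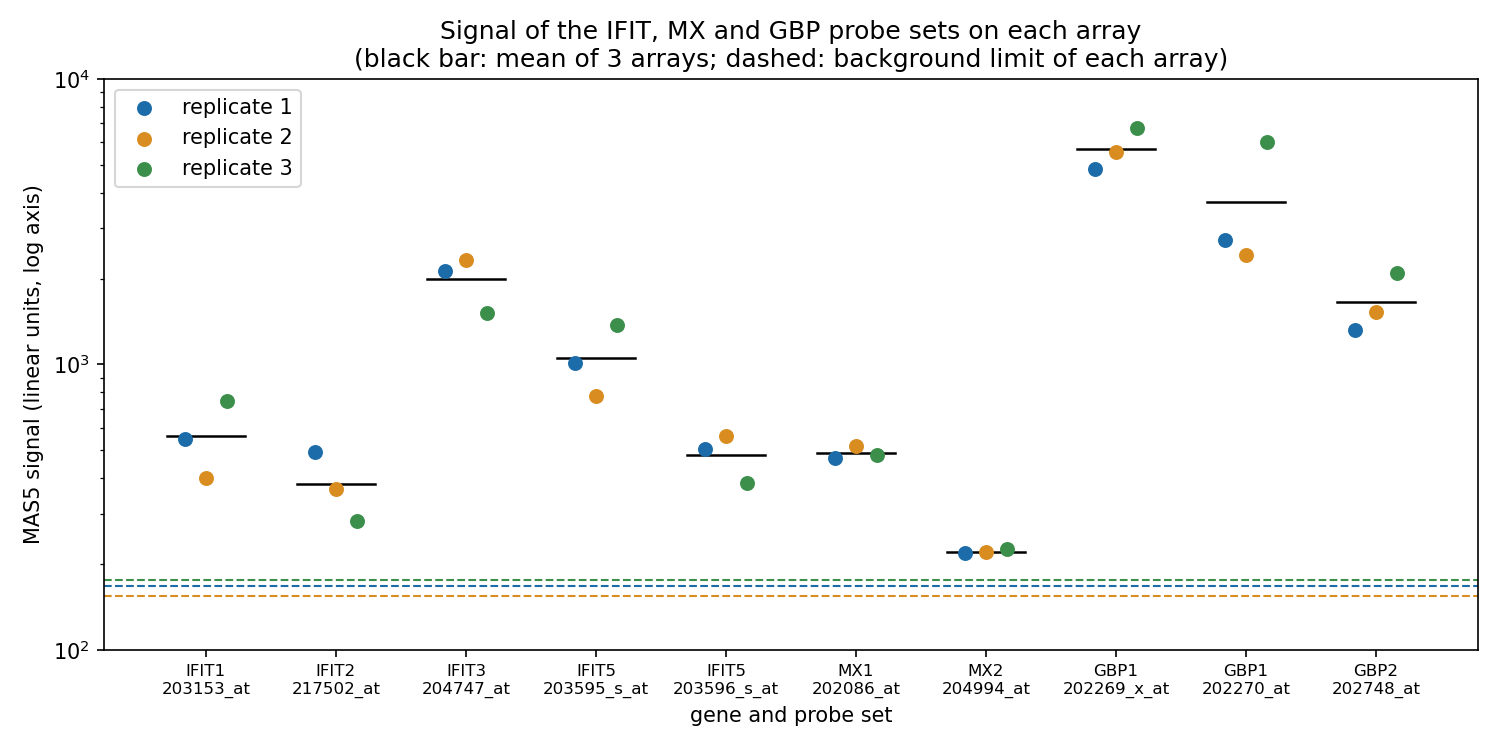
MAS5 signal (vertical axis, linear units on a log axis) of the 10 member probe sets on the arrays of replicates 1 (blue), 2 (orange) and 3 (green). The black bars are means over 3 arrays and the dashed lines are the background limits of 167, 155 and 176. All values lie above the limit of their array, and MX2, at 218 to 226, lies closest to it.

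Differences between the arrays were not the same for all members. Each culture was read on a single array, so culture and array cannot be told apart. The median SD of log2 signal over the arrays was 0.33 for the 10 member probe sets, compared with 0.29 over all called probe sets, whose quartiles were 0.18 and 0.43. For the members it was 0.13 without replicate 3, and between 0.33 and 0.35 without replicate 1 or 2. The same values over all called probe sets are not given here, so the drop cannot be read as particular to the members. The widest SD among the members was that of 202270_at of GBP1 (0.71), and 95.1% of called probe sets had a smaller SD. The MX genes had the narrowest, 0.07 for MX1 and 0.03 for MX2, and 4.67% of called probe sets had a smaller SD than MX1. The highest signal was 2.47 times the lowest for 202270_at and 1.86 times for IFIT1.

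Replicate 3 was either the highest or the lowest array for all called members but MX1, as it also was for most called probe sets. Of the 9 called member probe sets, 5 were highest there (IFIT1, 203595_s_at of IFIT5, both of GBP1 and GBP2) and 3 were lowest there (IFIT2, IFIT3 and 203596_s_at of IFIT5). Over all 7514 called probe sets 37.0% were highest and 41.7% were lowest in replicate 3. The log2 difference between replicate 3 and the mean of the other two was 1.22 for 202270_at of GBP1, larger than in 99.2% of called probe sets. It was 0.38 for 202269_x_at of GBP1, larger than in 78.9% of called probe sets. For GBP2 and IFIT1 it was 0.56 and 0.67. It was -0.59 for IFIT2 and -0.56 for IFIT3, and 16.5% and 17.8% of called probe sets lay lower. Bright probe sets as a class were higher on this array: the median difference was 0.17 over 1068 called probe sets more than 4 log2 units over the limit, a class that holds both GBP1 probe sets, and -0.03 over all called ones. The part of this brightness trend in the GBP1 values was not tested. With quantile normalization, an alternative added after seeing the data, the difference was 1.12 and 0.26 for the GBP1 probe sets, 0.57 for GBP2, 0.80 for IFIT1, -0.48 for IFIT2 and -0.53 for IFIT3. That of MX1 changed sign, from -0.04 to 0.11, and that of MX2 went from 0.04 to 0.13.

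**Figure D4:**
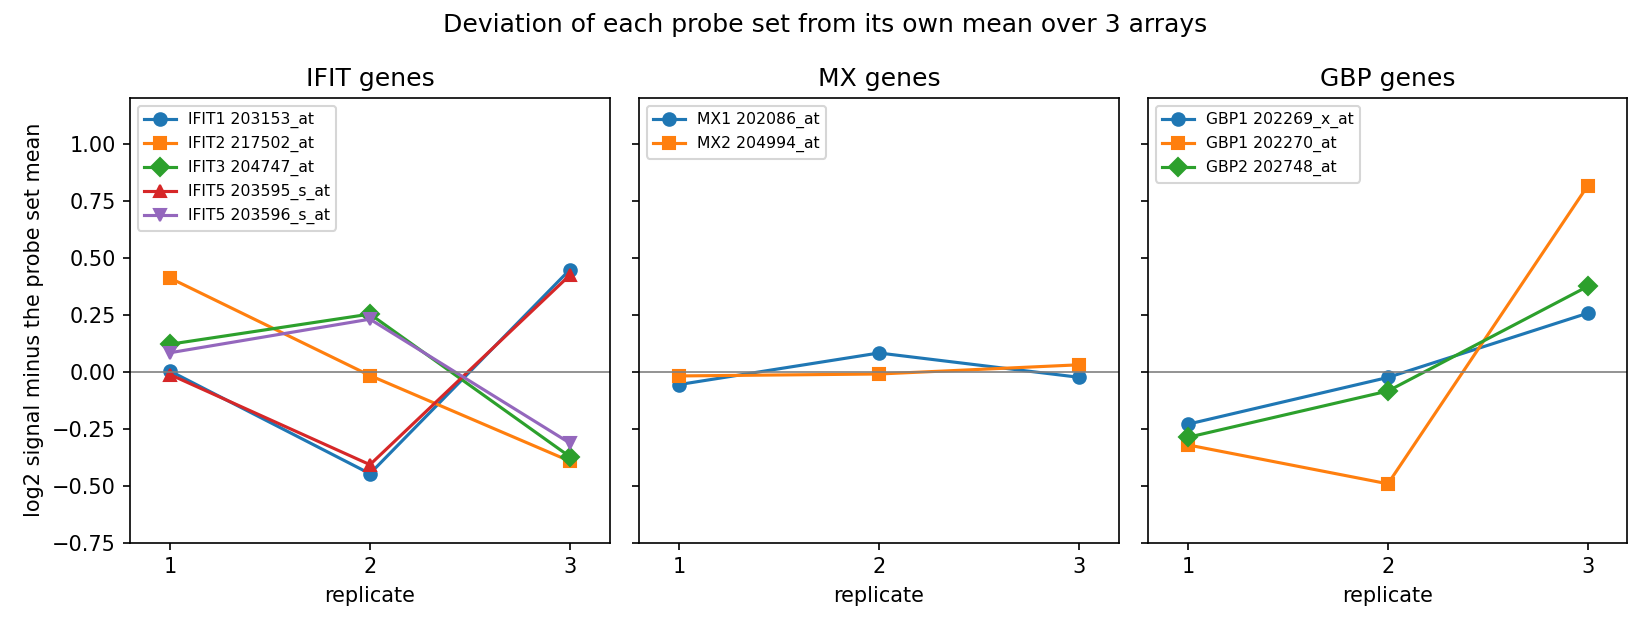
Log2 signal of each member probe set minus its own mean over the 3 arrays (vertical axis) in each replicate (horizontal axis); lines join the points of a probe set, and the replicates have no order. In replicate 3 the GBP probe sets, IFIT1 and 203595_s_at of IFIT5 lie above their means, IFIT2, IFIT3 and 203596_s_at of IFIT5 lie below theirs, and the MX genes stay near 0.

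The mean pattern of the called members over the 3 arrays was -0.03, -0.10 and 0.13 log2 units in replicates 1, 2 and 3. The called probe sets most like it, by root mean square difference over the 3 arrays, were those of PWP1 (0.00174), LSG1 (0.00492) and UBE2A (0.00644). In all, 883 of 7505 other called probe sets lay within 0.1 of the pattern, so with 3 arrays this measure singles out no gene.

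The signalling genes upstream of these families were mostly called above background. Of 16 listed receptor, JAK-STAT and IRF genes 14 were measured under a single symbol, and 11 were called, compared with 45.0% of all genes. The list's median was 2.17 log2 units over the limit. IRF1, which activates ISREs in cells given IFN-γ, lay 4.92 log2 units over the limit with signals of 4375, 6324 and 4557 in replicates 1, 2 and 3. The kinases JAK1 and JAK2 had mean signals of 636 ± 79.5 and 454 ± 63.2 (SD, n = 3 each), and the receptor chains IFNGR1 and IFNGR2 lay 3.90 and 2.37 log2 units over the limit. The interferon genes gave 1 call of 13 measured, the cross-hybridising probe set of IFNA17, and IFNB1 (7.60, 7.88 and 8.53) and IFNG (82.1 ± 8.16; SD, n = 3) were not called.

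Of 41 measured genes on a list of other interferon-stimulated antiviral genes, 32 were called, compared with 45.0% of all genes. The list's median was 2.57 log2 units over the limit. Without suffixed probe sets 18 of 28 were called, compared with 3356 of all 8369 genes. OAS2, which makes the second messenger of RNase L, averaged a signal of 564 ± 74.6 (SD, n = 3), and IFI44 had 1047 ± 194 (SD, n = 3). The deubiquitinase-like USP18, which removes ISG15 and dampens type I signalling, had 408 ± 48.9 (SD, n = 3), and the RNA-sensing kinase EIF2AK2 had 1376 ± 300.3 (SD, n = 3). TRIM22 had 1460 ± 322 (SD, n = 3), while OAS1 and ISG15 lay 2.57 and 5.46 log2 units over the limit. RSAD2, the viperin gene, was not called, with signals of 107, 58.3 and 167 that each lay below the limit of their array. The other genes not called were IFI6, IFI44L, DHX58, HERC5, APOBEC3G, APOBEC3F, IFI16 and PML. The list's median SD over the arrays was 0.29 log2 units, and that of the 8 members was 0.33.

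The GTPase relatives of the MX and GBP proteins that are not known as interferon targets were largely called only with suffixed probe sets. The dynamin superfamily list gave 6 of 7 measured genes, compared with 45.0% of all genes, with a median of 2.08 log2 units over the limit. It includes DNM2, which pinches off endocytic vesicles (411 ± 203; SD, n = 3), DNM1L, which divides mitochondria (773 ± 211; SD, n = 3), and the mitochondrial fusion genes MFN1 (890.0 ± 197), MFN2 (1225 ± 381) and OPA1 (703 ± 14.5; SD, n = 3 each). DNM1, the neuronal dynamin, was called with 574, 1137 and 259, highest in replicate 2, and DNM3 was not, at 80.2 ± 3.61 (SD, n = 3). Without suffixed probe sets 1 of 4 measured genes of the list was called, compared with 3356 of all 8369 genes. Of the other interferon-inducible GTPases listed, IRGC and GVINP1 were measured and neither was called, nor passed at an unadjusted p under 0.05, with means of 56.4 ± 34.2 and 87.0 ± 25.9 (SD, n = 3 each). GBP3, GBP4, GBP5, GBP6, GBP7, IRGM and IFIT1B were not analysed here.

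Genes that modify or work with the members were nearly all called. GBP1 is farnesylated and GBP2 is geranylgeranylated, and of the 5 measured genes of that prenylation machinery 5 were called, compared with 45.0% of all genes. FNTB, the beta subunit of the farnesyl transferase, was not analysed here. FNTA, the alpha subunit shared by the farnesyl and geranylgeranyl transferases, had a mean signal of 995 ± 54.5 (SD, n = 3). PGGT1B, the beta subunit of the geranylgeranyl transferase, had 381, 172 and 292 in replicates 1, 2 and 3 and passed narrowly (limma adjusted p = 0.0331). RCE1, which trims the prenylated end, and ICMT, which methylates it, had 436 ± 224 and 1171 ± 287 (SD, n = 3 each), and the protease ZMPSTE24 had 3219 ± 474 (SD, n = 3). With the limit at the 99th percentile, and also without suffixed probe sets, 3 of the 5 were called. Of all genes, 4171 of 11963 and 3356 of 8369 were called at these settings.

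Of 8 measured partners, 7 were called, compared with 45.0% of all genes, and the list's median was 3.58 log2 units over the limit. The called partners included subunits of initiation factor eIF3, the translation factor that IFIT1 and IFIT2 bind, with EIF3E at 9493 ± 1648 (SD, n = 3). TBK1, which IFIT3 contacts, had 1155 ± 163 (SD, n = 3), and CASP4, the caspase recruited by GBPs to bacterial lipopolysaccharide, had 1319 ± 361 (SD, n = 3). MAVS was not called at 232 ± 38.9 (SD, n = 3), although it lay above the limit on all 3 arrays.

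**Figure D5:**
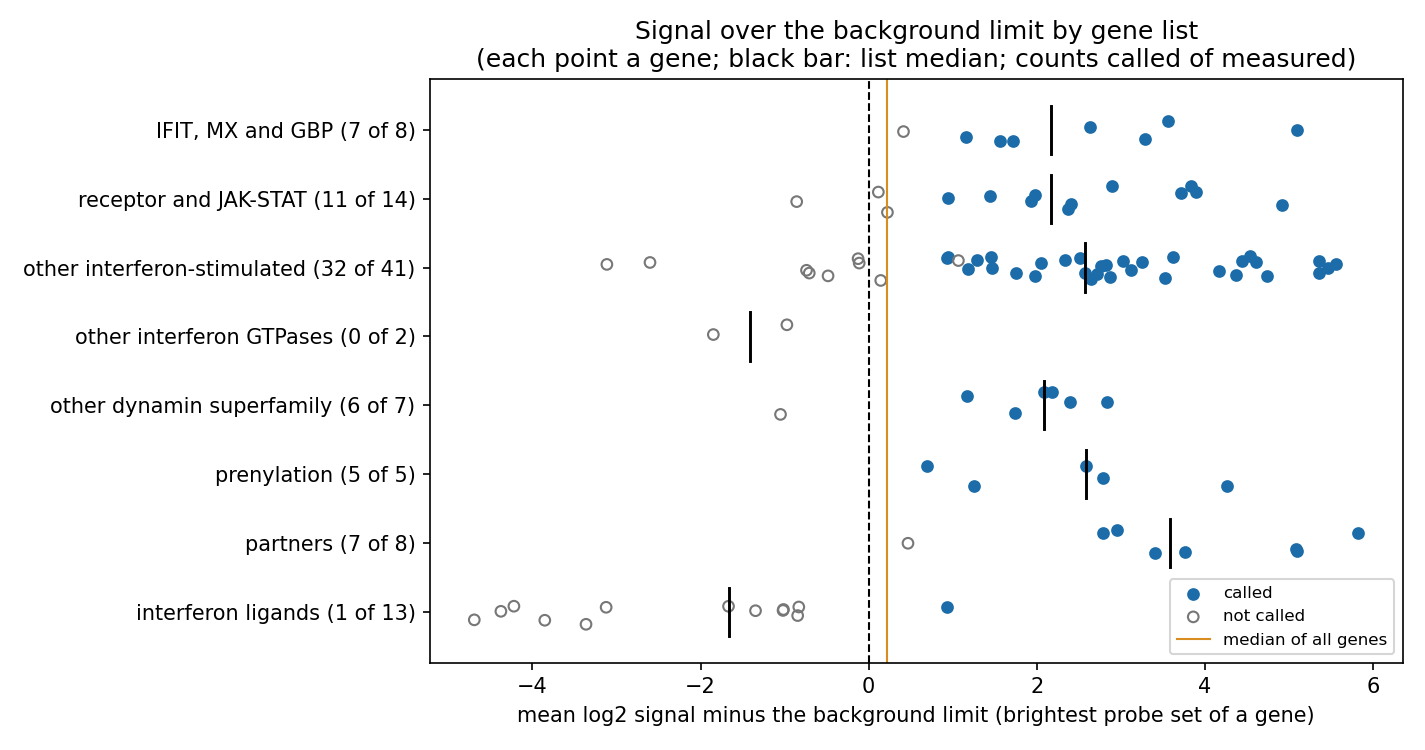
Mean log2 signal minus the background limit (horizontal axis) for each gene of 8 lists, filled where limma called it and open where not; black bars are list medians and the orange line is the median of all genes, 0.22. The members (7 of 8 called, median 2.17) overlap with the signalling, antiviral, dynamin and prenylation lists, and the interferon genes lie mostly below 0.

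Among the 3 nearest measured protein-coding genes on each side, 4 of 6 were called around the IFIT cluster, 3 of 6 around the MX genes and 6 of 6 around GBP1 and GBP2, compared with 45.0% of all genes. Genes in between that were not measured were skipped. The measured neighbours therefore lay 1 to 5 genes from the IFIT cluster and 1 to 4 from the MX genes. Those of GBP1 and GBP2 lay 3 to 13 genes away, so they are not the direct surroundings of these genes. LIPA, the lysosomal acid lipase next to IFIT2, averaged 1050.0 ± 93.3 (SD, n = 3), and CH25H, the interferon-induced cholesterol hydroxylase beside it, was not called at 62.8 ± 27.9 (SD, n = 3). TMPRSS2, the surface protease next to MX1, lay at the limit, with 183, 166 and 156, and was not called.

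The signals match the labelled cell type. All 12 epithelial markers were called, KRT8, KRT20, EPCAM, CDH1 and LGALS4 among them, whereas 0 of 12 T and NK cell, 0 of 7 B and plasma cell and 0 of 8 endothelial markers were called by limma, and 0 of these passed at an unadjusted p under 0.05. Of 9 myeloid markers only LYZ was called and of 10 fibroblast and smooth muscle markers only COL1A1, with summed signals of 7206 to 15042 and 966 to 1222 per array. The summed signal of the T and NK cell markers was 434 to 984 per array, and that of the epithelial markers 63486 to 80795.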

How the data were processed

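Signals were measured on Affymetrix arrays in 3 cultures and deposited as linear intensity per probe set, and the submitters' processing notes name MAS5 and Affymetrix Expression Console 1.1. The scaling target is not given in the sources used here. Trimmed by 2% at each end, the mean signal was 500.3 on every array. Precision is limited by the number of arrays.

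Of 22283 rows, 6 were empty. Names were re-ordered as 15 unnamed values, the 100 probe sets numbered 200000 to 200099, 493 with lower numbers, 21622 others in file order and 47 unnamed values. This order was inferred from the data, and every value depends on it. Over 4310 genes the first 2 probe sets correlated at r = 0.60, and at 0.19 as deposited. Only probe sets with 1 symbol in the platform annotation were used (1043 had several, 2107 were unlisted). Symbols were updated through RefSeq (GRCh38.p14).

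Log2 of the deposited signal minus the array's limit was fitted per probe set, and per gene with its brightest probe set, with an intercept and a variance trend in limma 3.58.1 (R 4.3.3), after a test on simulated data. The limit was treated as known. Members, lists and tests were chosen with earlier results of these data known. Named were all member probe sets, genes fixed per list, and the 3 genes most like the members.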

Additional observations from a re-analysis of the deposited data

How the results depend on the processing

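Of the 10 member probe sets 9 were called, and 9 were also called with the limit from all probe sets of the restricted genes, quantile normalization, log2(signal + 16), the lowest 25% of probe sets left out, no variance trend, or any 1 replicate left out. It was 8 at the 99th percentile, where IFIT2 was lost, MX2 lay at -0.28 and 5634 of all 19065 probe sets were called, against 7514, and 7 of 7 without suffixed probe sets, where MX2 was added. Read per gene, MX2 was also called with the lowest 25% left out (8 of 8 members, with 5550 of 8972 genes) or with the median over probe sets (8 of 8, with 5155 of 11963 genes). Without suffixed probe sets 3681 of 10100 probe sets, 3356 of 8369 genes, 18 of 28 antiviral and 1 of 4 dynamin superfamily genes were called. That setting changed both the features tested and the limit, and the cause was not tested.

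The order of the names mattered most. As deposited, 1 member probe set, 1 member gene, 1072 probe sets, 1032 genes, 3 antiviral and 0 dynamin superfamily genes (1 at an unadjusted p under 0.05) were called by limma. Then MX1 lay at -2.46, GBP1 at -1.55 and -0.62, GBP2 at -1.45, IFIT1 at -4.09, IFIT2 at -2.56, IFIT3 at -3.64, MX2 at -2.81 and 203595_s_at of IFIT5 at -4.40 log2 units, and only 203596_s_at of IFIT5 was called, at 3.94. With every name moved by the same number of rows, GBP2 lay at -2.45, MX1 at 3.70 and GBP1 at 3.79 (202269_x_at) and 5.22 (202270_at), and 8 member probe sets were called. No paired analysis was possible because the arrays form a single group. The median SD of the member probe sets ranged from 0.13 to 0.35 with 1 replicate left out. A call rests on the genes chosen to set the limit. For MX2, whose signal lay near the limit, the call changed with the setting, so these data do not settle whether its signal was above background.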
